A study of Rattus norvegicus with 9 samples.

Results

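The genes described here are 46 genes of the cell cycle and of mitosis, listed by name, with earlier results of these data known. Of the 46, 45 were found by symbol among the 16730 genes that both deposited tables list, and Ccnb2 was not analysed here. Liver RNA was sequenced in 3 normal, 3 model and 3 TA livers of male Sprague-Dawley rats. The normal rats were given saline. The model rats were given CCl4, carbon tetrachloride, at 2 ml/kg for 9 weeks by the stomach, which injures hepatocytes and leads to liver fibrosis. The TA rats were given the same CCl4 and then tormentic acid, a plant triterpenoid, at 3 mg/kg for 6 weeks. The dose was taken from the study's methods, because the labels name the TA libraries without one, and what the model rats received in those weeks is not given in the sources used here. By the same methods, livers of all groups were taken after fasting, once treatment had ended. Whole liver was sampled, so all cell types of the organ contribute, and fewer cells of a type and less RNA per cell cannot be told apart. The labels do not say that each library came from a separate rat, and p-values measure only the spread between these libraries.

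A cell that divides passes through G1, S phase, G2 and mitosis. D and E cyclins with their kinases release the E2F factors in G1. The MCM2-7 helicase is loaded on DNA before S phase and fired in it. Cyclins A and B with Cdk1 drive the cell through G2 into mitosis. Aurora and Polo-like kinases, kinesins, kinetochore proteins and the spindle checkpoint then separate the chromosomes, and Cdc20 and Ube2c act in the degradation of cyclin B. Most hepatocytes of the adult liver rest outside the cycle and re-enter it after injury or loss of tissue, and stellate cells, bile duct cells and immune cells of the injured liver can also divide. Of the genes analysed, 6 belong to G1 and the G1/S step, 12 to DNA replication, 10 to G2 and 17 to mitosis.

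Genes of the cycle are known to share short promoter elements, which is why a few promoters are shown before the levels. E2F sites are a known feature of G1/S promoters, and the cell cycle gene homology region (CHR), often next to CCAAT boxes, is a known feature of G2 and mitosis promoters. RefSeq promoters of assembly GRCr8, from 250 bases before to 50 bases after the gene start, were on hand for 33 of the 46 genes. The windows printed belong to the gene with the smallest p of Model VS Normal in each phase group with an entry, and to Cdk2 and Aurka, the 2 genes tested with a negative fold change. They are chr1:99927860-99928159 (minus strand) for Ccne1, chr19:13488563-13488862 (plus strand) for Mcm5, chr20:19265043-19265342 (plus strand) for Cdk1, chr13:103760837-103761136 (minus strand) for Cenpf, chr7:1721829-1722128 (minus strand) for Cdk2 and chr3:181560720-181561019 (minus strand) for Aurka. Capitals mark every match, on either strand, to the CHR motif TTTGAA, to the E2F motifs TTTGGCGC and TTTCGCGC and to CCAAT. Other forms of the E2F site were not searched, so a window without an E2F match may still hold such a site.
Ccne1: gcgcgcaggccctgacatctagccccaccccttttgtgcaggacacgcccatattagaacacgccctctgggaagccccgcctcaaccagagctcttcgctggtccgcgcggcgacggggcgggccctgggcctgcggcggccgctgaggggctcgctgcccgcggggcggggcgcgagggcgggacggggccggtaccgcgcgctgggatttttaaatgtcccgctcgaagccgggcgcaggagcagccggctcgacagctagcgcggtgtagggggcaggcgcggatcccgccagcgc
Mcm5: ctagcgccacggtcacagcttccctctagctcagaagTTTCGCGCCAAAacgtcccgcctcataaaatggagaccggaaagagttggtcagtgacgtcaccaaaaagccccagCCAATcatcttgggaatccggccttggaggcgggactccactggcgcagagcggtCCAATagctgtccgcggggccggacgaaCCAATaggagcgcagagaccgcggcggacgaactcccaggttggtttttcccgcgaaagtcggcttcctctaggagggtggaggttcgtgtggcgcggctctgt
Cdk1: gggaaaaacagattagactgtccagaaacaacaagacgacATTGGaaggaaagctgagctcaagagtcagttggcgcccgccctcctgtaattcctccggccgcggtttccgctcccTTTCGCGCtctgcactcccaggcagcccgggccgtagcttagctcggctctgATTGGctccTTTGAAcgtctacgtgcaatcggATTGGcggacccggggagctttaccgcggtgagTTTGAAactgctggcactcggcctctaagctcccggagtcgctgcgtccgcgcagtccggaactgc
Cenpf: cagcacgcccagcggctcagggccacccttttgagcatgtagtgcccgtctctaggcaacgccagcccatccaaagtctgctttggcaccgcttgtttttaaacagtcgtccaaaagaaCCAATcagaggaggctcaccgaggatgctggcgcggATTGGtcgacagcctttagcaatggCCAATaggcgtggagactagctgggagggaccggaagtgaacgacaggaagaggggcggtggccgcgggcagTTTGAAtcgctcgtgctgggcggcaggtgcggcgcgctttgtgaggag
Cdk2: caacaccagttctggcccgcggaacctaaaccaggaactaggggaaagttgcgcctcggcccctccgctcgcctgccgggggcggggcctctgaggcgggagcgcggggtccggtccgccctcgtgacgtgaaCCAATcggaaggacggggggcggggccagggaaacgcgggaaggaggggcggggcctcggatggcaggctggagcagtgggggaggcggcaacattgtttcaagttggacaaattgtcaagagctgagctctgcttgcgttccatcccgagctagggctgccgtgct
Aurka: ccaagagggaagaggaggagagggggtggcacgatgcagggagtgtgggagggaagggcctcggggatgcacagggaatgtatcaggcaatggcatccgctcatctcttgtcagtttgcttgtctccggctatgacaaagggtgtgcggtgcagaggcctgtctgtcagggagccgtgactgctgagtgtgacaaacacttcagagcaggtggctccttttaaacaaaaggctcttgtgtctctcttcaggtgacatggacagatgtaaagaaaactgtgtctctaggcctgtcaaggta
The Mcm5 window holds E2F matches on both strands that overlap each other, from base -213 to base -202 before the start, and 3 CCAAT matches. The Cdk1 window holds 2 CHR matches, 1 E2F match and 3 CCAAT matches. The Cenpf window holds 1 CHR match just after the start and 3 CCAAT matches. The Cdk2 window holds 1 CCAAT match, and the Ccne1 and Aurka windows hold no match to these letters. In the Aurka window the start follows the letters ctctcttcag, like those at the end of an intron. An ATG with an open reading frame stands just after it. This window may therefore lie inside the gene, and its lack of matches does not describe the Aurka promoter.

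Over the 33 windows, the CHR motif was found in 14 (42.4%), the E2F motif in 8 (24.2%) and CCAAT in 24 (72.7%). Over all 27457 RefSeq promoters of the same length, the shares were 18.1%, 0.841% and 37.7%. The motifs differed by phase. The E2F motif was in 7 of 9 replication promoters, those of Cdt1, Mcm2, Mcm3, Mcm5, Mcm6, Mcm7 and Tyms, and in 0 of 13 mitosis promoters. The CHR motif was in 8 of 13 mitosis promoters (61.5%) and 5 of 9 G2 promoters (55.6%), and in 1 of 9 replication promoters, that of Mcm2. The doubtful Aurka window is counted among the 9 G2 promoters as empty of these motifs. CHR and CCAAT stood together in 36.4% of the 33 windows and in 7.25% of all promoters. These matches are a description of the letters in these windows, and factor binding was not measured.

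The libraries held 13156735 to 18090405 counted reads. The first model liver stood apart from the other 8. Its 50 most counted genes took 27.9% of its reads, against 40.4% to 45.7% elsewhere, and its TMM scaling factor was 1.69, against 0.816 to 1.16. TMM is edgeR's scaling of libraries to each other, and CPM is the count per 1e+06 reads after this scaling. The summed CPM of 7 hepatocyte markers, among them Alb and Ttr, was 26701 in this liver and 75384 to 151243 in the other 8. The summed CPM of 7 markers of stellate cells and myofibroblasts, among them Acta2 and Col1a1, was 12223 there and 198 to 1452 in the others. The counts of calls, their medians and the fold changes of the genes described most fully are given with and without this liver. All 7 hepatocyte markers had counts in all 9 livers, so that none of the defining markers of the labelled tissue was absent.

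The cell cycle genes were low in the normal livers, high in the model livers and low in the TA livers. The summed CPM of the 45 genes was 243, 156 and 184 in the normal livers. It was 1016, 594 and 284 in the model livers. It was 207, 183 and 153 in the TA livers. Every model liver lay above every normal and every TA liver, and the model livers differed among themselves by more than the other groups did. The median over the 45 genes of the ratio to the normal mean was 15.9, 4.91 and 1.71 in the 3 model livers and 1.25, 0.807 and 0.726 in the 3 TA livers. The first model liver was the highest of all 9 for 41 of the 45 genes, whereas it was the highest for 30.5% of the 12847 genes with at least 10 counts per liver on average. The order from the first over the second to the third model liver also held for 41 genes, against 26.1% of that set. The second model liver was above every normal liver for 42 genes. The model liver of replicate number 3 was above every normal liver for 28 genes, within their range for 12 and below them for 5. The share of all genes above every normal liver was not counted for either liver. The 42 and 28 genes therefore have no such share beside them.

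**Figure D1:**
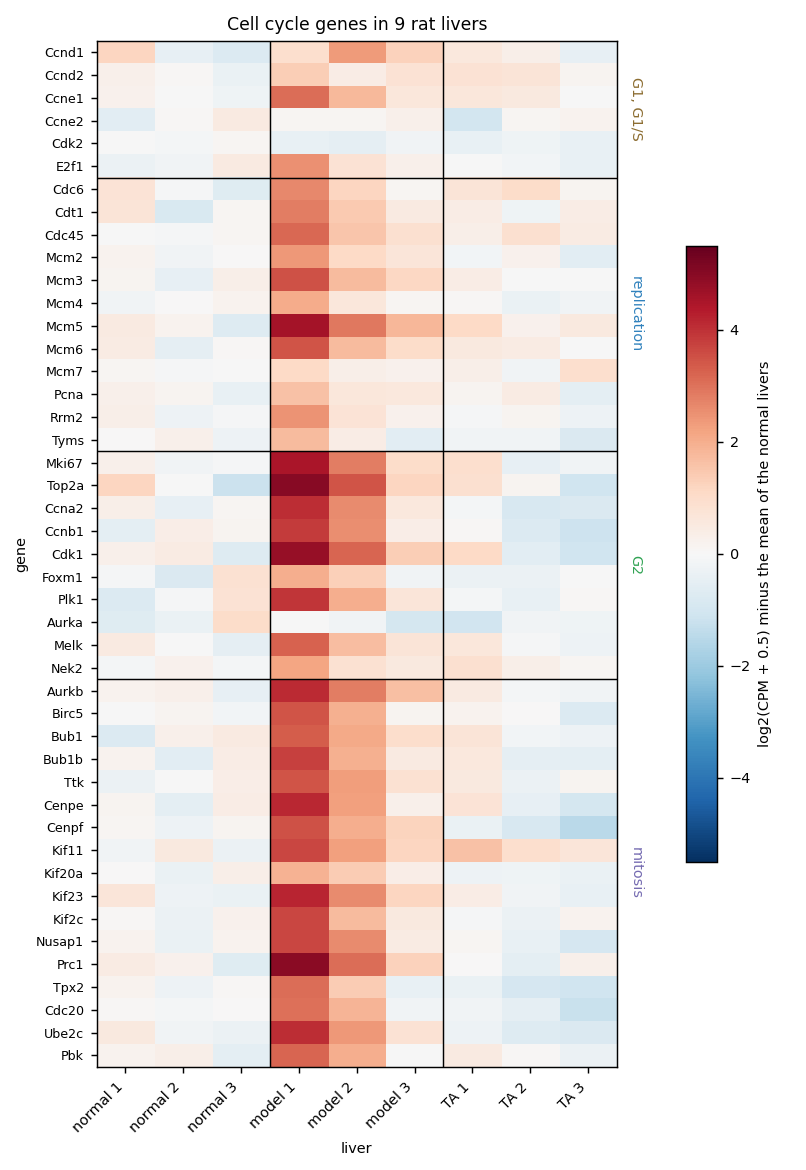
The colour gives log2(CPM + 0.5) minus the mean of the normal livers for 45 genes (rows, by phase) in 9 livers (columns). Red dominates in the first and second model livers and is pale in the third, and the TA livers mostly have the colours of the normal ones, with Ccnd1, Ccne2, Cdk2 and Aurka outside this pattern.

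The spread between livers was larger in the model group than elsewhere. The median over the 45 genes of the SD of log2 CPM was 0.41 in the normal, 1.24 in the model and 0.42 in the TA group. Over the 12847 genes it was 0.31, 0.40 and 0.34. The phases differed in how far they moved in the model livers. The median ratio to the normal mean in the 3 model livers was 2.49, 1.66 and 1.61 for the 6 genes of G1 and G1/S. It was 10.7, 3.39 and 1.56 for the 12 replication genes, 25.1, 7.88 and 1.88 for the 10 G2 genes and 19.97, 6.78 and 1.74 for the 17 mitosis genes. The order of the phases was therefore wide in the first model liver and nearly gone in the third. The phases also differ in their normal levels. Of the genes tested in Model VS Normal, all 6 livers were above the low-count filter's cutoff for 4 of 6 G1 and G1/S genes. This held for 7 of 10 replication, 3 of 8 G2 and 5 of 16 mitosis genes. Phase and normal level were not separated.

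Levels can be compared between genes only per length, for which the authors' FPKM values (fragments per kilobase of exon, scaled to the mapped reads) were used. In the normal livers the highest mean FPKM values were those of Ccnd1 (12.1 ± 9.54, SD, n = 3) and Pcna (12.1 ± 3.07), followed by Aurka (7.88 ± 5.18), Cdk2 (7.84 ± 0.47) and Mcm7 (5.88 ± 0.36). Mki67, Top2a and Kif11 were at 0.28 ± 0.06, 0.28 ± 0.27 and 0.14 ± 0.08. In the model livers Ccnd1 (46.7 ± 21.6) and Pcna (40.7 ± 29.5) were again the highest, followed by Cdk1 (21.4 ± 25.5) and Birc5 (16.2 ± 19.0). The SDs of the last pair exceeded their means, so their place in the order is not fixed by these livers. FPKM was scaled to the reads of each library by the authors and not by TMM.

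Model VS Normal asks how the livers of rats given CCl4 for 9 weeks differed from normal ones. Of the 40 genes that passed the filter on low counts, 33 rose by the thresholds of the study's methods, an unadjusted p under 0.05 and an absolute log2 fold change above 1, and 0 fell. Over all 12730 genes tested, 16.6% rose by these thresholds. At an adjusted p under 0.05 (edgeR's quasi-likelihood test, Benjamini-Hochberg), 10 rose, against 6.86% of all genes. In 26 genes every model liver was above every normal liver, against 20.9% of all genes. The median log2 fold change was 2.87, beside 0.02 over all genes tested. By phase, 3 of 6 G1 and G1/S genes, 8 of 10 replication genes, 6 of 8 G2 genes and 16 of 16 mitosis genes rose by the study's thresholds. Of the 40, 21 had a normal liver below the filter's cutoff and passed it through the model livers. The 19 genes above the cutoff in all 6 livers had a median of 1.42, and 13 of them rose, 3 of them at an adjusted p under 0.05 (edgeR). The other 7 of the 10 genes at an adjusted p under 0.05 had a normal liver below the cutoff. With no filter, 36 of the 45 genes rose, against 15.3% of all genes.

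The first model liver carried much of the size of the change and not its direction. Without it, 24 of 41 genes rose by the study's thresholds, against 12.2% of all genes, and the median log2 fold change was 1.63. By phase, these were 2 of 6 G1 and G1/S genes, 4 of 11 replication genes, 5 of 8 G2 genes and 13 of 16 mitosis genes. At an adjusted p under 0.05 (edgeR), 5 of 41 rose without it, against 6.89% of all genes in either direction. These 5 were Mcm5, Mki67, Cdk1, Aurkb and Cenpf. The calls of E2f1, Cdt1, Mcm2, Mcm4, Pcna, Plk1, Kif20a, Tpx2 and Cdc20 were lost without it. Without the third model liver, 32 were called at an adjusted p under 0.05, while the share over all genes, in either direction, was 19.3% in place of 7.87%. Without any 1 of the normal livers 0 were, and the share over all genes was also only 0% to 0.385%. By the study's thresholds 28 to 33 still rose, against 13.3% to 15.4% of all genes.

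**Figure D2:**
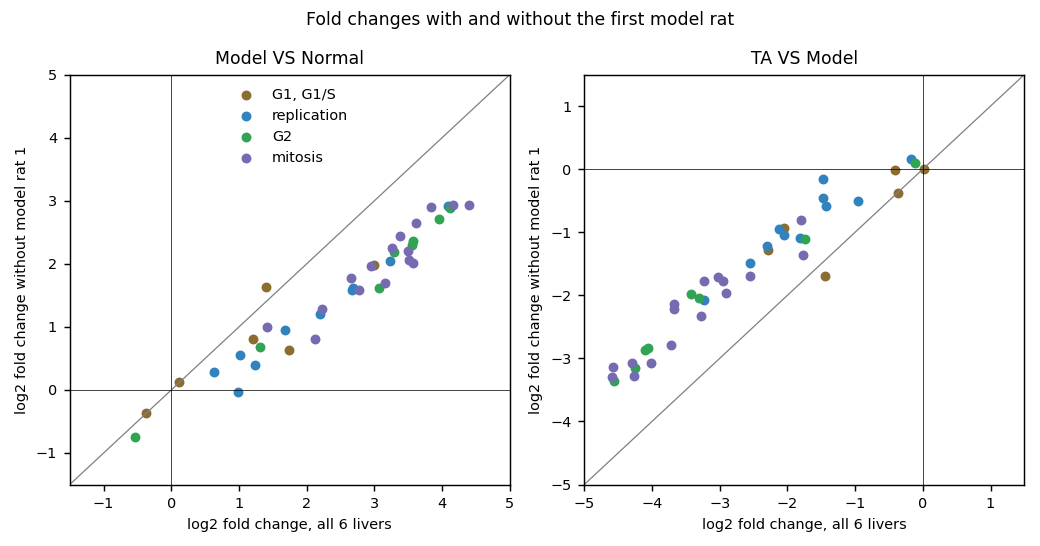
Each point is a gene, coloured by phase, with its log2 fold change over all 6 livers (x axis) and without the first model liver (y axis), for Model VS Normal (left) and TA VS Model (right), and the line marks equal values. Most points lie nearer to 0 on the y axis, with medians of 1.63 against 2.87 on the left and -1.69 against -2.56 on the right.

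Among the G1 and G1/S genes, Ccne1, Ccnd1 and E2f1 rose. Ccne1, the cyclin that activates Cdk2 at the entry to S phase, was at 0.664, 0.451 and 0.336 CPM in the normal livers and at 7.67, 2.90 and 0.990 in the model livers. All 3 model livers were above the normal ones, and its log2 fold change was 2.99 ± 0.80 (SE, n = 3, edgeR adjusted p = 0.0586), and 1.98 without the first model liver. Ccnd1, the cyclin D that growth signals induce in G1, was at 106, 33.9 and 27.5 CPM in the normal and 89.4, 239 and 111 in the model livers. It was highest in the second model liver and the groups overlapped, because the first normal liver was high. Its log2 fold change was 1.39 ± 0.60 (edgeR adjusted p = 0.169), and without the second model liver it was 0.84 and no longer past the thresholds. Without the first model liver it was 1.63. E2f1, a transcription factor of the G1/S genes, was at 1.33, 1.48 and 2.69 CPM in the normal and 12.5, 3.42 and 2.26 in the model livers, where the third lay within the normal range. Its log2 fold change was 1.74 ± 0.69 (edgeR adjusted p = 0.143), and 0.63 without the first model liver. Ccnd2 was at 0.588 to 1.16 CPM in the normal and 1.32 to 3.05 in the model livers, with a log2 fold change of 1.21 ± 0.53 that missed the threshold (unadjusted p = 0.0504). Ccne2 was at 2.96 to 3.32 CPM in the model livers, inside the normal range of 1.66 to 4.03.

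The replication genes gave 8 that rose of 10 tested. Mcm5, a subunit of the MCM2-7 helicase, was at 1.25, 0.901 and 0.252 CPM in the normal and 28.4, 8.56 and 3.89 in the model livers. The groups were far apart, with a log2 fold change of 4.08 ± 0.86 (edgeR adjusted p = 0.0333) and of 2.92 without the first model liver. Mcm3, another subunit, was at 2.66, 1.61 and 3.11 CPM and at 31.7, 9.28 and 5.80, with a log2 fold change of 2.68 ± 0.66 (edgeR adjusted p = 0.0488). Mcm6 was at 1.22 to 2.82 CPM in the normal and 4.46 to 26.0 in the model livers, with a log2 fold change of 2.67 ± 0.70 (edgeR adjusted p = 0.0563). Cdc45, which joins the MCM ring to form the active helicase, was at 0.322 to 0.420 CPM in the normal and 1.06 to 7.09 in the model livers, with a log2 fold change of 3.23 ± 0.81 (edgeR adjusted p = 0.0501). Leaving out the first model liver gave log2 fold changes of 1.61 for Mcm3, 1.58 for Mcm6 and 2.05 for Cdc45. The subunits of the ring did not move by one size. With all 6 livers the log2 fold changes were 1.68 for Mcm2, 1.24 for Mcm4 and 0.62 for Mcm7, whose rise from 16.5 to 18.5 CPM in the normal livers to 20.9 to 37.3 in the model livers did not pass the thresholds. Mcm7 hosts 3 miRNA genes in its gene body. Pcna, the sliding clamp of the polymerases, was at 19.7, 18.2 and 12.3 CPM in the normal and 51.3, 25.3 and 24.5 in the model livers, with a log2 fold change of 1.02 ± 0.35. This lies at the threshold of 1, and the call was lost with DESeq2, with limma voom, with RLE size factors, with no filter and with the replicate block. Tyms, which makes thymidylate, was at 1.51 to 2.38 CPM in the normal livers and at 7.58, 2.70 and 1.13 in the model livers, and its log2 fold change of 0.99 ± 0.67 turned negative without the first model liver. Cdc6 and Rrm2 were not tested. Rrm2, a subunit of ribonucleotide reductase, had 3, 0 and 1 counts in the normal and 64, 8 and 3 in the model livers.

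Among the G2 genes, the rise was large in the first and second model livers and small in the third. Mki67, whose protein Ki-67 marks cycling cells, was at 4.07, 2.77 and 3.11 CPM in the normal and 83.8, 25.7 and 7.003 in the model livers. The lowest model liver was still above all normal ones, and the log2 fold change was 3.56 ± 0.81 (edgeR adjusted p = 0.0412). Cdk1, the kinase that starts mitosis, was at 1.33, 1.61 and 0.420 CPM and at 42.1, 13.7 and 3.40, with a log2 fold change of 4.12 ± 0.93 (edgeR adjusted p = 0.0398) and of 2.88 without the first model liver. Top2a, the topoisomerase that untangles replicated DNA, was at 3.82, 1.35 and 0.336 CPM in the normal and 60.1, 20.4 and 3.82 in the model livers. The third model liver and the first normal liver had the same level to 3 digits, and the log2 fold change was 3.95 ± 1.08 (edgeR adjusted p = 0.0620). Ccna2, cyclin A, was at 0.515 to 1.25 CPM in the normal and 1.56 to 22.9 in the model livers, with a log2 fold change of 3.57 ± 0.92 (edgeR adjusted p = 0.0540). Ccnb1, cyclin B, and Plk1, the Polo-like kinase of mitotic entry, rose by the study's thresholds with log2 fold changes of 3.29 and 3.06. With the first model liver left out, the log2 fold changes were 2.29 for Mki67, 2.71 for Top2a, 2.37 for Ccna2, 2.19 for Ccnb1 and 1.62 for Plk1. Foxm1, the transcription factor that drives G2 genes, was at 2.33, 1.22 and 4.78 CPM in the normal and 11.4, 6.85 and 2.05 in the model livers. The groups overlapped and its log2 fold change of 1.30 ± 0.70 did not pass. Melk and Nek2 were not tested, with at most 6 and 2 counts in a normal liver and 136 and 43 in the first model liver.

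All 16 mitosis genes tested rose by the study's thresholds, and 6 of them at an adjusted p under 0.05 (edgeR). Of the 16, 5 were above the filter's cutoff in all normal livers, namely Birc5, Cenpf, Kif20a, Tpx2 and Cdc20. Cenpf is the only 1 of these among the 6, and the other 5 had a normal liver below the cutoff and passed the filter through the model livers, where they are high. Aurkb, the kinase of the chromosomal passenger complex, had the smallest p, with 0.830, 0.901 and 0.336 CPM in the normal and 19.3, 7.57 and 3.11 in the model livers. Its log2 fold change was 3.84 ± 0.75 (edgeR adjusted p = 0.0285). Cenpf, a kinetochore protein, was at 1.49, 1.03 and 1.51 CPM and at 20.4, 6.85 and 3.75, with a log2 fold change of 2.95 ± 0.66 (edgeR adjusted p = 0.0393). Prc1, which bundles the microtubules of the central spindle, had the largest log2 fold change of the genes tested, 4.39 ± 1.02 (edgeR adjusted p = 0.0423), from 0.252 to 1.16 CPM in the normal to 2.40 to 36.9 in the model livers. The kinesins are the motors of the spindle. Kif11, which pushes the poles apart, was at 0.581, 1.29 and 0.504 CPM in the normal and 15.3, 5.53 and 2.33 in the model livers, with a log2 fold change of 3.26 ± 0.77 (edgeR adjusted p = 0.0429). Kif23, the kinesin of cytokinesis, was at 0.168 to 0.830 CPM and at 1.41 to 14.9, with a log2 fold change of 4.15 ± 1.01 (edgeR adjusted p = 0.0468). Ttk, a spindle checkpoint kinase, was at 0.166 to 0.588 CPM and at 0.990 to 8.62, with a log2 fold change of 3.61 ± 0.88 (edgeR adjusted p = 0.0468). The log2 fold changes without the first model liver were 2.90 for Aurkb, 1.97 for Cenpf, 2.94 for Prc1, 2.25 for Kif11, 2.93 for Kif23 and 2.65 for Ttk. With all 6 livers, the smallest change of the group was that of Kif20a, 1.42 ± 0.44, whose normal level of 3.73 to 6.30 CPM was the highest among the 17. In 3 genes the groups overlapped, which Tpx2, a spindle assembly factor, shows with 2.83 to 4.07 CPM in the normal livers and 33.1, 9.87 and 2.55 in the model livers. Pbk was not tested, with 4, 6 and 0 counts in the normal and 137, 36 and 3 in the model livers.

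**Figure D3:**
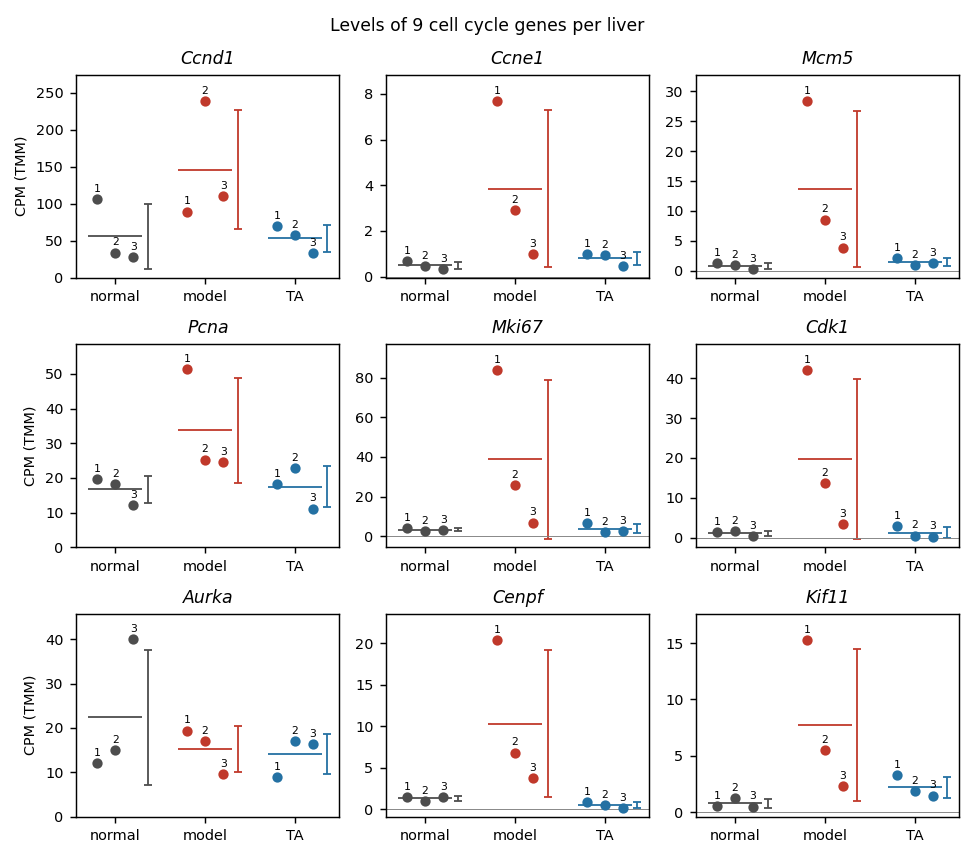
CPM after TMM scaling (y axis, with 0 shown) of 9 genes in the normal, model and TA livers, each point a liver with its replicate number, with lines at the group mean and bars for the SD (n = 3). The first model liver is the highest point for all but Ccnd1, which peaks in the second model liver at 239, and Aurka, which peaks in the third normal liver at 40.0.

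Cdk2 and Aurka went the other way without passing a test. Cdk2, the partner of the E and A cyclins, was at 20.4, 18.8 and 22.3 CPM in the normal and 15.3, 14.3 and 17.9 in the model livers. The groups did not overlap, as for 17.3% of all genes in this direction, and the log2 fold change was -0.37 ± 0.22 (edgeR adjusted p = 0.290). Aurka, the kinase of the spindle poles, was at 12.1, 15.0 and 40.0 CPM in the normal and 19.4, 17.0 and 9.55 in the model livers. The third normal liver set its mean, and the log2 fold change of -0.54 ± 0.48 was 0.15 without that liver. Scaled to the library totals, in which the median of all genes shifts to 0.65, both genes had a positive log2 fold change. In RefSeq's GRCr8 assembly Aurka overlaps Fam210b, which was at 19.2, 29.2 and 35.4 CPM in the normal and 5.70, 8.69 and 14.2 in the model livers (log2 fold change -1.55, edgeR adjusted p = 0.0496). Whether reads of one were counted on the other was not tested.

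TA VS Model asks how the livers of treated rats differed from those given CCl4 alone. Of 41 genes tested, 33 fell by the study's thresholds and 0 rose, against 10.2% of all 12781 genes falling. At an adjusted p under 0.05, 0 of the 41 fell by edgeR's quasi-likelihood test, as did 0% of all genes. The smallest adjusted p of these genes was 0.230, 34 had an unadjusted p under 0.05, and DESeq2 called 25 at an adjusted p under 0.05, against 4.25% of all genes in either direction. In 26 genes every TA liver was below every model liver, against 12.6% of all genes. The median log2 fold change was -2.56, beside -0.0038 over all genes tested. By phase, 3 of 6 G1 and G1/S genes, 7 of 11 replication genes, 7 of 8 G2 genes and 16 of 16 mitosis genes fell, with medians of -0.93, -1.82, -3.74 and -3.47. Of the 41, 20 had a TA liver below the filter's cutoff, so that the count is not over all listed genes, and with no filter 36 of 45 fell. Of the 21 above the cutoff in all 6 livers, 14 fell. The model livers are those of the comparison with the normal group, so that both comparisons share their high values.

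Without the first model liver, 25 of 41 genes still fell by the study's thresholds, against 4.96% of all genes, with a median log2 fold change of -1.69. By phase, 1 of 6 G1 and G1/S genes, 4 of 11 replication genes, 6 of 8 G2 genes and 14 of 16 mitosis genes fell. The calls of Ccne1, E2f1, Cdt1, Cdc45, Mcm4, Foxm1, Cenpe and Kif11 were lost. The count was also 25, of 43 tested, without the third TA liver, against 7.51% of all genes. It was 31 to 38 when any other liver was left out, against 5.88% to 13.8% of all genes.

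Cenpf was at 0.926, 0.508 and 0.149 CPM in the TA livers, below every model liver and every normal liver, with a log2 fold change against the model of -4.27 ± 0.84 (unadjusted p = 0.00102), the smallest p of the list. Ube2c, the ubiquitin-conjugating enzyme of the anaphase-promoting complex, was at 22.6, 6.78 and 1.91 CPM in the model and 0.641, 0.338 and 0.298 in the TA livers, with the largest fall of the genes tested, -4.58 ± 0.95. Prc1 fell by nearly as much, -4.58 ± 1.01, with 0.712, 0.338 and 0.970 CPM in the TA livers. Ccna2 was at 0.783, 0.254 and 0.298 CPM in the TA livers and had a log2 fold change of -4.57 ± 1.01. Mki67 was at 6.62, 2.28 and 2.83 CPM in the TA livers, against 7.003 in the lowest model liver, and had a log2 fold change of -3.31 ± 0.87. Cdk1 was at 2.78, 0.508 and 0.224 CPM in the TA livers and had a log2 fold change of -4.05 ± 1.11. Aurkb was at 1.14, 0.592 and 0.522 CPM in the TA livers, all below 3.11, and had a log2 fold change of -3.71 ± 0.74. Top2a, Kif23 and Ttk had log2 fold changes of -4.10 ± 1.05, -4.29 ± 0.98 and -3.28 ± 0.88. The falls of all 10 of these genes were smaller without the first model liver, with log2 fold changes of -3.29 for Cenpf, -3.30 for Ube2c, -3.13 for Prc1, -3.36 for Ccna2, -2.04 for Mki67, -2.83 for Cdk1, -2.79 for Aurkb, -2.87 for Top2a, -3.07 for Kif23 and -2.32 for Ttk. The first TA liver was the highest of the TA livers for 31 of the 45 genes.

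The replication genes fell by less than the G2 and mitosis genes, of which a larger part had a TA liver below the filter's cutoff. Mcm5 was at 2.14, 0.930 and 1.27 CPM in the TA livers, below the 3.89 of the lowest model liver, with a log2 fold change of -3.23 ± 0.76. Mcm3, Mcm6 and Cdc45 had log2 fold changes of -2.56 ± 0.64, -2.31 ± 0.66 and -2.13 ± 0.77. When the first model liver was left out, the log2 fold changes were -2.08 for Mcm5, -1.49 for Mcm3, -1.21 for Mcm6 and -0.95 for Cdc45. Pcna was at 18.2, 22.8 and 11.1 CPM in the TA livers, with a log2 fold change of -0.96 ± 0.39 that did not reach the fold threshold. Mcm7 was at 22.1, 15.1 and 33.4 CPM in the TA livers, where the third was nearly as high as the first model liver at 37.3, and its log2 fold change of -0.18 ± 0.36 turned positive without the first model liver. Among the G1 and G1/S genes, Ccnd1 was at 69.5, 57.7 and 33.5 CPM in the TA livers, below the 89.4 of the lowest model liver, with a log2 fold change of -1.44 ± 0.46. Ccne1 and E2f1 had log2 fold changes of -2.28 ± 0.78 and -2.04 ± 0.68. With the second and the third model liver alone, the log2 fold changes were -1.69 for Ccnd1, -1.28 for Ccne1 and -0.93 for E2f1. Ccnd2 was at 1.04 to 1.92 CPM in the TA livers with a log2 fold change of -0.41 ± 0.50. Cdk2, at 15.3 to 17.3 CPM, and Aurka, at 8.97 to 17.0 CPM, had log2 fold changes of 0.02 ± 0.22 and -0.12 ± 0.36.

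**Figure D4:**
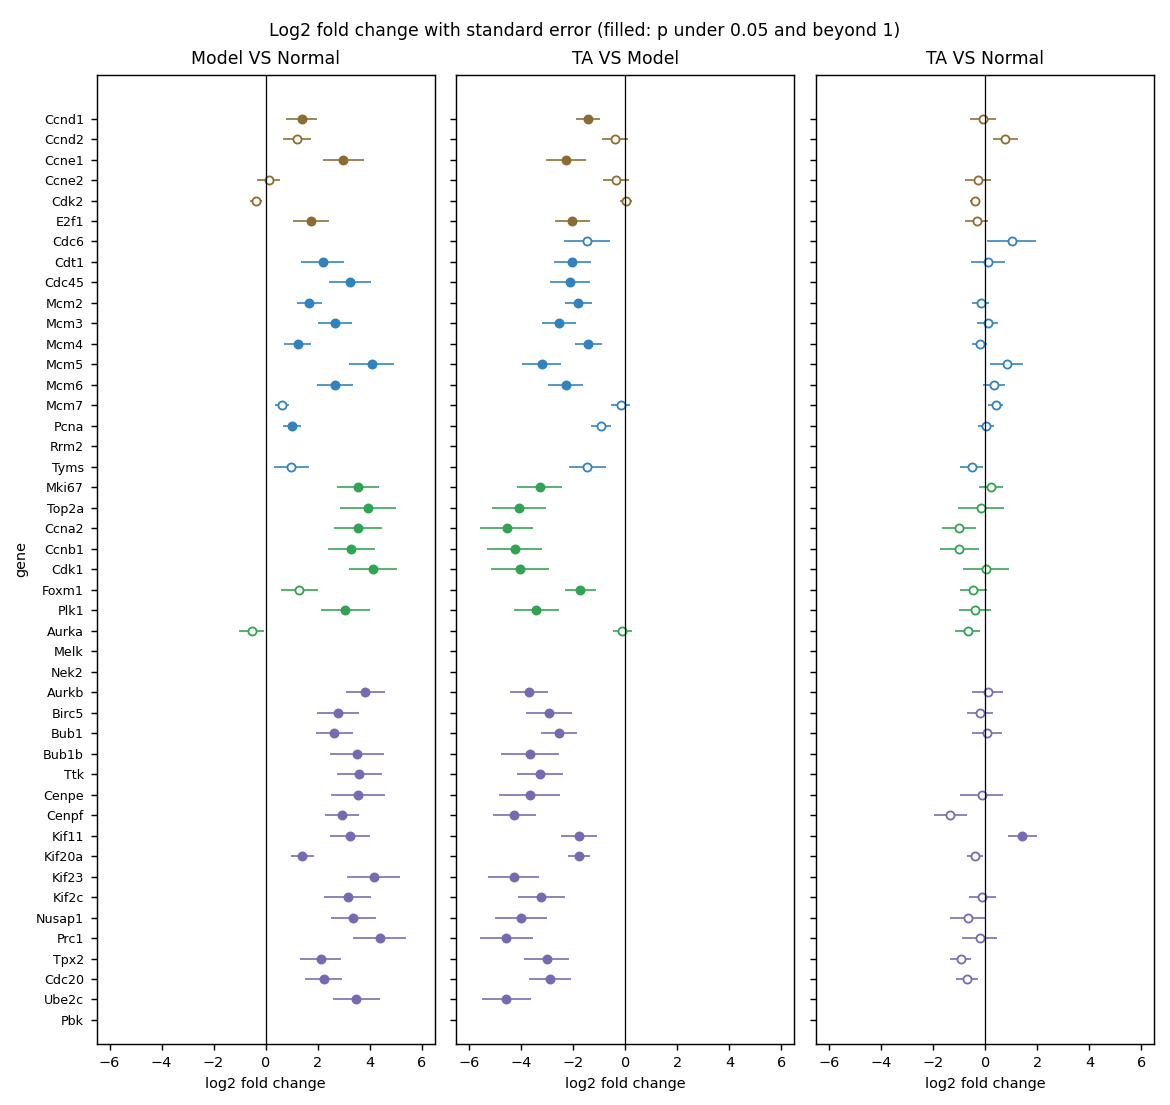
Log2 fold change (points, x axis) with its standard error (bars) for each gene tested, coloured by phase from G1 at the top to mitosis at the bottom, in the 3 comparisons, with filled points for an unadjusted p under 0.05 and an absolute log2 fold change above 1. Filled points lie right of 0 for 33 genes in Model VS Normal and left of 0 for 33 in TA VS Model, and Kif11 alone is filled in TA VS Normal.

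TA VS Normal asks how the livers of treated rats differed from normal ones. Of 35 genes tested, 1 rose by the study's thresholds, against 4.24% of all 12179 genes, and 0 fell, against 1.02%. At an adjusted p under 0.05 (edgeR), 0 rose, against 0.23% of all genes, and 2 had an unadjusted p under 0.05. DESeq2 and limma voom also called 0 at an adjusted p under 0.05. The median log2 fold change was -0.19, with 13 genes above 0 and 22 below. The gene that rose was Kif11, at 3.28, 1.86 and 1.49 CPM in the TA livers against 0.504 to 1.29 in the normal livers. All 3 TA livers were above the normal ones, as for 8.26% of all genes, and the log2 fold change was 1.42 ± 0.55 (edgeR adjusted p = 0.445). The call was lost without the first or the third normal liver, without the first or the second TA liver, and when all 9 libraries entered the fit. Kif11 overlaps Ide in GRCr8, which was at 71.1 to 77.4 CPM in the normal and 76.9 to 81.0 in the TA livers. The other gene with an unadjusted p under 0.05 was Tpx2, at 2.63, 1.61 and 1.34 CPM against 2.83 to 4.07, with a log2 fold change of -0.94 ± 0.40 (unadjusted p = 0.0455). Without the first TA liver, Tpx2, Ccnb1 and Cenpf fell by the study's thresholds and 0 rose.

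How closely these 6 livers fix a difference varies between genes. The log2 fold change of TA VS Normal was 0.22 ± 0.46 for Mki67, 0.04 ± 0.89 for Cdk1, 0.09 ± 0.60 for Aurkb and 0.82 ± 0.63 for Mcm5. It was -1.35 ± 0.64 for Cenpf and -1.03 ± 0.65 for Ccna2. It was -0.09 ± 0.51 for Ccnd1, 0.03 ± 0.31 for Pcna and 0.41 ± 0.29 for Mcm7. Cdk2 was lower in every TA liver than in every normal liver, as were 6.81% of all genes, with a log2 fold change of -0.39 ± 0.19 (edgeR adjusted p = 0.601). With the replicate number as a block, as the same-numbered livers of these groups deviated together, 3 genes had an unadjusted p under 0.05, Kif11 remained the only 1 past the study's thresholds, and the log2 fold changes of Ccnd1 and Cdk1 were 0.11 and -0.31. At an adjusted p under 0.05, 0 were called with the block, and the smallest adjusted p was 0.199.

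Other genes of the cycle were counted from lists chosen by name, with earlier results of these data known. Over all genes, 16.6% rose and 5.55% fell in Model VS Normal by the study's thresholds, 6.86% rose at an adjusted p under 0.05 (edgeR), and 10.2% fell in TA VS Model by the study's thresholds. Without the first model liver, 12.2% rose and 3.77% fell in Model VS Normal, and 4.96% fell in TA VS Model. The share at an adjusted p under 0.05 (edgeR) was then 6.89% in Model VS Normal, in either direction. Of 52 other mitosis genes tested, 34 rose in Model VS Normal by the study's thresholds, 11 of them at an adjusted p under 0.05 (edgeR), and 37 fell in TA VS Model. Without the first model liver these became 25 of 53 that rose, 1 of them at an adjusted p under 0.05 (edgeR), and 25 of 54 that fell. Kntc1, of the complex that brings dynein to kinetochores, was at 0 to 0.249 CPM in the normal livers, 0.990 to 7.81 in the model and 0.0746 to 0.423 in the TA livers. It had 0 to 3 counts in the normal and 1 to 5 in the TA livers and passed the filter through the model livers, so that its fold changes are not fixed by these livers. Kifc1, a kinesin of spindle assembly, had log2 fold changes of 3.30 and -3.23. Ccnf and Gtse1 had log2 fold changes of -0.13 and -0.09 in Model VS Normal, and Gtse1 fell in TA VS Model with -1.62. Of 42 other replication genes, 14 rose and 1 fell in Model VS Normal, and 11 fell in TA VS Model. Without the first model liver 5 of 43 rose, near the 12.2% of all genes, and 0 fell. In TA VS Model 4 of 42 fell without it. Cdc7, the kinase that fires origins, and Pola2, a subunit of DNA polymerase alpha, rose with log2 fold changes of 3.40 and 1.48. Mcm10, an MCM-binding replication factor, fell, from 17.3 to 23.2 CPM in the normal to 5.80 to 14.1 in the model livers, with a log2 fold change of -1.16 ± 0.38 (edgeR adjusted p = 0.0950).

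Among the inhibitors of the cycle, 5 of 17 tested rose and 1 fell in Model VS Normal, beside 16.6% and 5.55% of all genes, and 3 rose and 0 fell without the first model liver. Cdkn2c, the p18 inhibitor of Cdk4 and Cdk6, was at 2.91, 1.55 and 2.85 CPM in the normal, 12.7, 12.0 and 8.98 in the model and 7.41, 9.05 and 7.68 in the TA livers. It rose in Model VS Normal with a log2 fold change of 2.21 ± 0.36 (edgeR adjusted p = 0.0173), which was 2.10 without the first model liver. It was also past the study's thresholds in TA VS Normal, with 1.70 ± 0.34 (edgeR adjusted p = 0.102), and its log2 fold change in TA VS Model was -0.48 ± 0.27. Cdkn2b, the p15 inhibitor, rose in Model VS Normal and fell in TA VS Model, with log2 fold changes of 1.95 and -1.91. Gadd45g, a growth arrest gene, went the other way, with 72.2, 83.6 and 336 CPM in the normal, 32.7, 25.9 and 77.0 in the model and 72.1, 129 and 183 in the TA livers. Its log2 fold changes were -1.86 and 1.505. Of the E2F and MuvB factors, 3 of 14 rose, E2f5, E2f8 and Mybl2, and 1 without the first model liver. Of 12 other cyclins, kinases and their regulators, 3 rose with or without it, with all 6 livers Wee1, Pkmyt1 and Cdc14a. Over all genes, 16.6% rose with all 6 livers, and 12.2% rose and 3.77% fell without the first model liver. Of 17 genes of the anaphase-promoting complex, 0 rose and 0 fell in Model VS Normal, and 1 had an unadjusted p under 0.05.

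Markers of other cell types were counted in the same way, beside the 16.6% of all genes that rose and 5.55% that fell in Model VS Normal. Without the first model liver these shares were 12.2% and 3.77%. In TA VS Model 10.2% of all genes fell, and 4.96% without that liver. The 5 cholangiocyte markers, among them Krt7 and Krt19, all rose in Model VS Normal, all at an adjusted p under 0.05 (edgeR), and all fell in TA VS Model by the study's thresholds. Their summed CPM was 15.9 to 23.8 in the normal, 86.2 to 159 in the model and 29.7 to 34.6 in the TA livers, with Krt7 at 0 counts in 1 normal liver. Of 7 markers of stellate cells and myofibroblasts, 6 rose and 6 fell in TA VS Model, where 0 fell without the first model liver, with summed CPM of 198 to 289, 1152 to 12223 and 658 to 1155. Of 4 neutrophil markers tested, 3 rose, with summed CPM of 10.2 to 23.4, 35.3 to 88.0 and 17.7 to 31.3. Of 7 T cell markers 1 rose, with summed CPM of 25.7 to 44.5, 50.0 to 121 and 31.4 to 56.0. Of 7 macrophage markers 3 rose and 2 fell, and their summed CPM was 663 in the first model liver but 212 and 293 in the others, against 313 to 428 in the normal livers. Without the first model liver 0 rose and 3 fell. Of 6 B and plasma cell markers tested 0 rose, and 4 of 7 rose without the first model liver, with summed CPM of 25.6 to 37.0, 12.97 to 116 and 64.3 to 66.6. Of 5 endothelial markers 2 rose and 1 fell, of 5 erythroid markers 1 rose, both mesothelium markers tested rose, and of 7 hepatocyte markers 0 passed the thresholds. The first model liver, with the highest levels of cell cycle genes, had the highest cholangiocyte, stellate, neutrophil and T cell sums of the 9 livers and the lowest hepatocyte and B cell sums. The part of these cell types in the rise of the cell cycle genes was not tested.

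**Figure D5:**
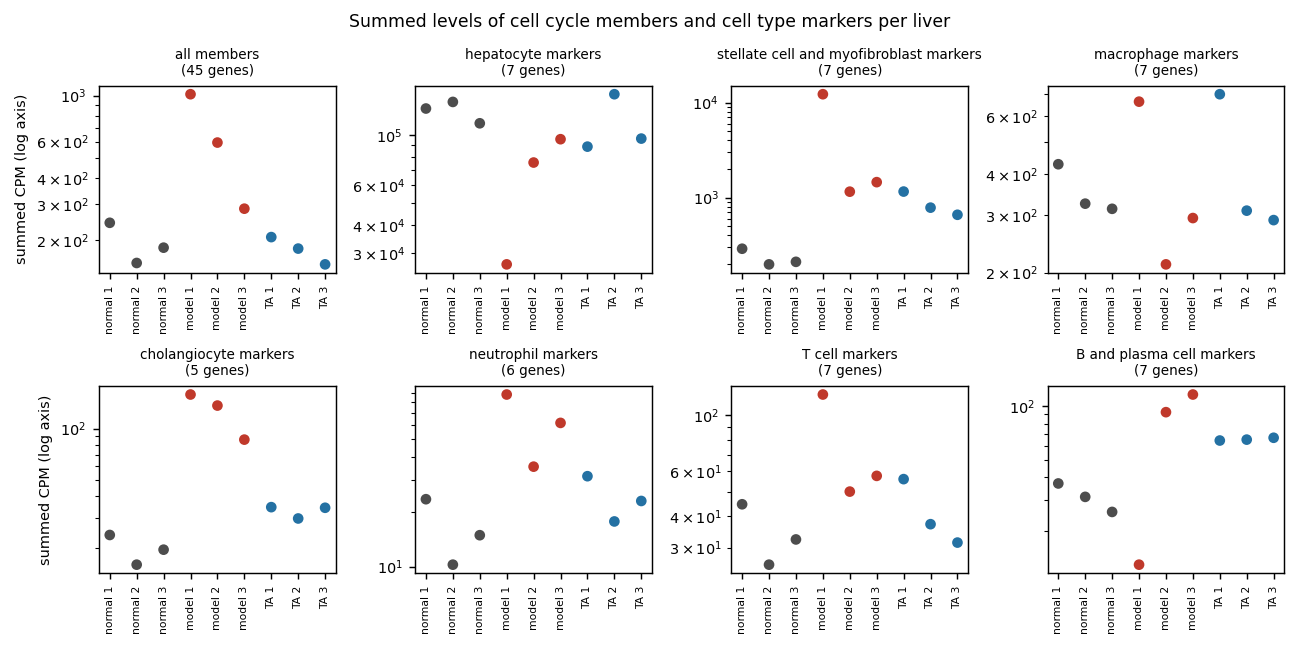
Summed CPM (log axis) of 45 cell cycle genes and of 7 lists of cell type markers in each of the 9 livers. The cell cycle sum falls from 1016 over 594 to 284 across the model livers, the cholangiocyte sum from 159 over 137 to 86.2, and the hepatocyte sum is lowest in the first model liver at 26701.

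Some of the values share reads or letters with other genes. In GRCr8, 9 of the 45 genes overlap a protein-coding gene and 15 have a pseudogene or copy by name, Ube2c and Aurka with several each, so that their counts are uncertain where reads could be split. The sources used here do not say whether counting used strand.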

How the data were processed

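Total RNA of 9 livers was sequenced after polyA selection, and the authors trimmed the reads, aligned them with STAR and used HTSeq-count to count them. The deposited counts of reads on each gene are raw and stand in 2 tables that share the model libraries. The deposited FPKM values, which the authors scaled to gene length and library reads, were used only for levels between genes. The deposited normalized values, fold changes and p-values of the authors' DESeq2 comparisons were not used. The labels name mm9 and the methods a human genome as the reference, while the symbols are written as rat symbols. This conflict could not be settled from the tables, so counts rest on the symbols as deposited. Every member symbol was matched to rat RefSeq of GRCr8, which was used for names, neighbours and promoters.

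Counts were compared with edgeR 4.0.16 in R 4.3.3 (glmQLFit and glmQLFTest, TMM, filterByExpr), in the libraries of the groups compared, with Benjamini-Hochberg adjustment over all genes tested. The test was checked on simulated data. A standard error is the ratio of a log2 fold change to the square root of its F. CPM per liver came from 1 TMM scaling of all 9 libraries. Alternatives were DESeq2 1.42.0, limma 3.58.1 (voom with sample weights), another form of the fit, other scalings, no filter, all 9 libraries in 1 fit, the replicate block and leaving out each library. The fit on raw counts allows for counting error beside the spread between livers, and 3 libraries against 3 estimate that spread from few values. The SDs of CPM and FPKM hold both.

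The genes and lists were chosen with earlier results of these data known. Full statistics are given for the 4 genes of each phase with the smallest p in Model VS Normal and for genes of the phases at an adjusted p under 0.05. In the other lists, genes were named from the 2 with the smallest p in each direction. Not all of those are given, and some have only a log2 fold change. Ube2c, Ccnb1, Plk1, Foxm1, Pcna, Tyms, Mcm7, Cdk2, Aurka, Tpx2, Mybl2 and Cdc14a among others were named outside this rule, after their values were seen. Counts of the other lists and of the markers without the first model liver were added after the data were seen. The replicate numbers come from the labels. Same-numbered livers deviated together in TA VS Normal (r of 0.259, 0.423 and 0.509). In Model VS Normal (0.219, -0.055 and -0.055) and TA VS Model (0.222, -0.030 and 0.009) only the first-numbered livers did. Livers of unlike number reached nearly as much there, with r up to 0.205 and 0.194.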

Additional observations from a re-analysis of the deposited data

How the results depend on the processing

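The counts by the study's thresholds in Model VS Normal and TA VS Model stayed within 1.5 times the reported 33 under all alternatives, and no gene called lost its direction. At an adjusted p under 0.05, the 10 genes of Model VS Normal became 29 with DESeq2, 25 with limma voom, 28 with library totals, 19 with no filter and 24 with all 9 libraries in 1 fit, while the share of all genes, 7.87% in either direction, became 20.9%, 27%, 15.6%, 7.17% and 13.5%. Leaving out each liver gave 0 (without any normal liver) to 32 (without the third model liver). The shares of all genes were 0% to 0.385% without a normal liver and 19.3% without the third model liver. The median log2 fold change without each liver ran from 1.63 to 3.33. In TA VS Model, DESeq2 called 25 in place of 0, and 4.25% of all genes in place of 0%. In TA VS Normal, the 1 call by the study's thresholds became 0 with all 9 libraries in 1 fit and 0 to 3 without each liver, and the median ran from -0.40 to 0.0091. The cause was not tested.

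Log2 fold changes of the genes with full statistics changed sign only where none was called. These were Ccnd2 in TA VS Model (0.23 with limma voom) and, in TA VS Normal, E2f1 (0.024 with limma voom), Cdk1 (-0.10 with limma voom and -0.31 with the replicate block), Ccnd1 (0.10 with library totals and 0.11 with the block) and Top2a (0.013 with library totals). Without each liver, TA VS Normal ran from -0.41 to 0.77 for Ccnd1, -0.92 to 0.88 for Top2a, -0.63 to 0.16 for Prc1, -0.15 to 0.29 for Mcm3, -0.52 to 0.032 for E2f1, -1.65 to 0.52 for Cdk1, -0.35 to 0.34 for Aurkb and -0.40 to 0.48 for Mki67.

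That same-numbered livers go together was seen only in these same data, which does not make them pairs. In TA VS Normal, where they deviated together, the replicate block raised the genes at an adjusted p under 0.05 (edgeR) from 32 to 203 over all genes. It left 0 of the listed ones. In the other comparisons the same-numbered livers did not deviate together. For Model VS Normal the block gave 29 genes by the study's thresholds, 13 at an adjusted p under 0.05 (edgeR) and a median of 2.44. For TA VS Model these were 31, 0 and -2.36. Low counts limit the genes near 0 in the normal and TA livers, such as Nek2 and Rrm2.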
